A study of Rattus norvegicus with 12 samples.

Results

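The nuclear genes of respiratory chain complexes I to IV were followed in rat L6 myotubes, muscle fibres grown from a skeletal muscle cell line. Members were the probes whose RefSeq transcript belongs to a nuclear gene with a symbol starting Ndufa, Ndufb, Ndufc, Ndufs, Ndufv, Uqcr, Cox4, Cox5, Cox6, Cox7 or Cox8, or to Sdha, Sdhb, Sdhc, Sdhd or Cyc1. On the array, 93 probes for 72 genes met this rule, and the 89 probes for 70 genes that the deposited table also holds were kept, of 11181 named genes in that table. The genes met by the rule but missing from the table were Ndufa4l2 and Cox8c. The 70 members were 33 subunits of complex I, 7 complex I assembly factors (the symbols starting Ndufaf), 4 subunits of complex II, 9 of complex III, 15 of complex IV, Ndufa4, and Cox6c-ps1, a transcribed pseudogene.

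Myotubes, labelled as differentiated for 6 days, were exposed for 24 hours to 60 µM GR24, 60 µM pinosylvin or 60 µM resveratrol, each dissolved in DMSO, or to DMSO as the control. The paper's methods give a longer time of differentiation than the labels. GR24 is a synthetic analog of strigolactones, a class of plant hormones. Pinosylvin and resveratrol are plant stilbenes, and resveratrol carries an additional hydroxyl group. Each of the 4 groups had 3 arrays, from 3 independent experiments on the same batch of cells. Between 58.0% and 64.3% of the 58717 spots of an array were well above background, no spot was saturated, and the number of arrays limits the precision. Levels are given as the log2 signal of a probe minus the 75th percentile of its own array, in the order of replicates 1, 2 and 3, and differences are in log2 units. A gene was called where limma, fitted over 24279 probes, gave an adjusted p below 0.05, and all 89 member probes were tested.

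Complex I takes electrons from NADH, complex II takes them from succinate, and both hand them to coenzyme Q. Complex III passes them on to cytochrome c and complex IV to oxygen, while complexes I, III and IV pump protons that drive ATP synthesis. Muscle carries tissue forms of some complex IV subunits, and complex I is built with the help of assembly factors that do not stay in the finished enzyme.

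With GR24, 5 of the 7 assembly factor genes were higher and 23 of the 62 subunit genes lower. Among the 70 members, 7 were higher and 23 lower than in the control, where 31.5% of all tested probes were higher and 25.5% lower. The members' median difference was -0.15, against 0.03 over all tested probes. The 5 assembly factors that rose were part of the 7 higher members, and the 23 lower members were all subunits. Across 6 ways of scaling the arrays, 7 to 13 members were higher and 18 to 24 lower, 7 and 17 of them were called the same way under each scaling, and none had opposite calls. The scaling to the 75th percentile over all spots moved the median of all probes by 0.10, from 0.03 to 0.13. It left the members' median at -0.046, again below that of all probes. With the replicate number as a block, 11 members were higher and 33 lower, where 36.2% of all probes were higher and 30.3% lower.

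**Figure D1:**
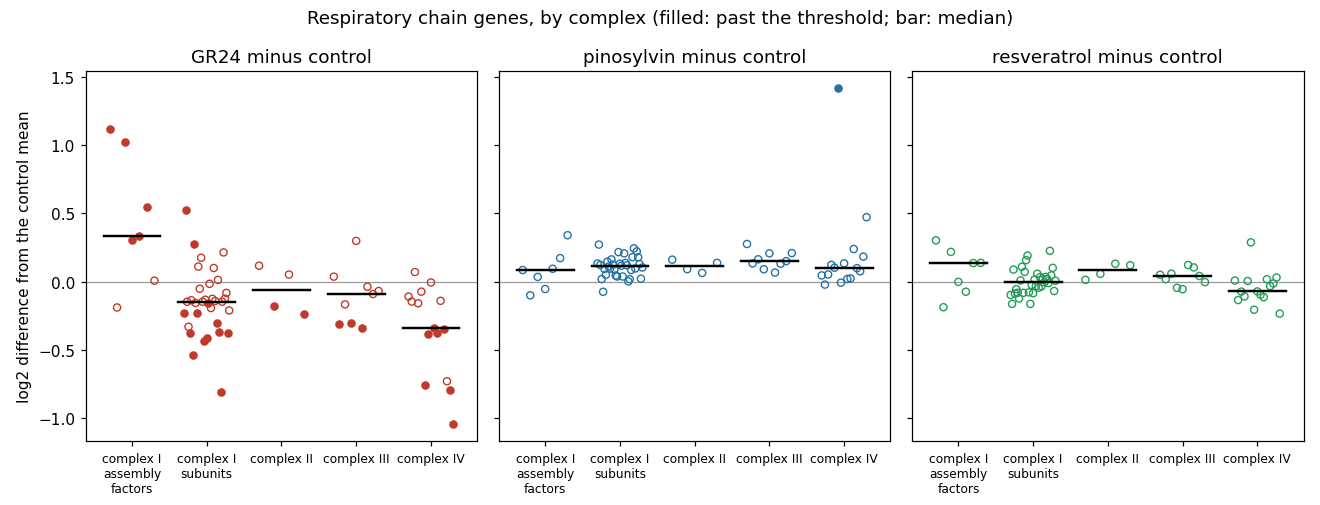
Log2 difference from the control mean for the members by complex, without Ndufa4 and Cox6c-ps1, in a panel for each compound. Each circle is a gene, filled where its adjusted p was below 0.05, and bars are medians over a complex. With GR24 the assembly factors have a median of 0.33 and complex IV one of -0.34, while the medians of complexes II and III change sign with the scaling. With pinosylvin the filled circle is Cox6a2 at 1.42.

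The assembly factors of complex I had a higher median with GR24 than the subunits of any of the 4 complexes. Of 7, 5 were higher and 0 lower with GR24 in limma, against 31.5% and 25.5% of all probes. At an unadjusted p below 0.05, 5 were higher and 1 lower (33.5% and 27.1% of all probes). The same 5 were higher under each of the 6 scalings. The median difference of the 7 was 0.33, and between 0.33 and 0.43 over the scalings. Ndufaf1 belongs to the membrane-bound group of proteins that joins the intermediates of complex I. Its level was -1.16, -1.0 and -1.27 in the control, -0.03, 0.14 and -0.20 with GR24, -1.0, -1.04 and -1.14 with pinosylvin, and -0.78, -0.77 and -0.98 with resveratrol. Every GR24 array was above every other array, and the resveratrol arrays lay between GR24 and the control without overlap. The difference with GR24 was 1.11 (95% interval 0.88 to 1.35, SE 0.11, adjusted p 7.57e-06). With resveratrol it was 0.30 (adjusted p 0.0805), which passed the threshold with the replicate block (adjusted p 0.00613).

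Ndufaf4 works with Ndufaf3 early in the assembly of the arm that takes up electrons. Its brightest probe stood at 1.11, 1.06 and 1.16 in the control, 2.17, 2.28 and 1.94 with GR24, 1.19, 1.05 and 1.19 with pinosylvin, and 1.30, 1.37 and 1.32 with resveratrol. Again the GR24 arrays stood apart from the rest, while the pinosylvin arrays lay on both sides of the control range. The difference with GR24 was 1.02 (95% interval 0.83 to 1.22, SE 0.087, adjusted p 3.27e-06). A second probe gave 1.46. The remaining probe was well above background on only 1 control array, so no value is given for it. Its partner Ndufaf3 had a difference of -0.19 (adjusted p 0.0722), which was a decrease with the replicate block (adjusted p 0.0288).

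The other factors that rose, Ndufaf5, Ndufaf6 and Ndufaf7, had smaller differences. Ndufaf7, a methyltransferase, stood at -0.34, -0.23 and -0.42 in the control and at 0.28, 0.28 and 0.08 with GR24. Its groups did not overlap, and the difference was 0.54 (SE 0.085, adjusted p 0.000269), although a second probe gave 0.27 (adjusted p 0.102). Ndufaf6 rose by 0.33 (adjusted p 0.00869), and on the first slide alone its difference was 0.26 (adjusted p 0.0586). Ndufaf5, which hydroxylates the subunit Ndufs7, rose by 0.31 (adjusted p 0.0127). Ndufaf8, a partner that stabilises Ndufaf5, differed by 0.0075 (adjusted p 0.963).

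The 33 complex I subunits mostly had negative differences with GR24. Of these, 2 were higher and 11 lower, against 31.5% and 25.5% of all probes. The median of the 33 was -0.15 and lay between -0.15 and -0.047 over the scalings. Over the scalings 2 to 6 subunits were higher and 8 to 11 lower, and 2 higher and 8 lower ones were called the same way under each. With the replicate block 4 were higher and 17 lower, against 36.2% and 30.3% of all probes. Ndufs4, an accessory subunit needed to complete the module that oxidises NADH, changed most among those that fell. It stood at -0.50, -0.57 and -0.51 in the control, -1.37, -1.22 and -1.41 with GR24, -0.26, -0.32 and -0.27 with pinosylvin, and -0.58, -0.36 and -0.58 with resveratrol. The GR24 arrays were below every other array, and the pinosylvin arrays were above every other array. The difference with GR24 was -0.81 (95% interval -0.98 to -0.63, adjusted p 8.23e-06). With pinosylvin it was 0.24 (adjusted p 0.0584), which passed with the replicate block (adjusted p 0.0361).

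Further complex I subunits were lower with GR24. Ndufa2, an accessory subunit, stood at 3.41, 3.52 and 3.19 in the control and at 2.87, 2.89 and 2.75 with GR24, a difference of -0.54 without overlap (adjusted p 0.00213). The core subunits Ndufv2 and Ndufs1, which carry iron-sulfur clusters, differed by -0.37 (adjusted p 0.00117) and -0.30 (adjusted p 0.00152). Ndufs3, another core subunit, differed by -0.37 (adjusted p 0.00222). Of the membrane arm's accessory subunits, Ndufb2 differed by -0.43 (adjusted p 0.00105) and Ndufb4 by -0.41 (adjusted p 0.00612), and the 2 further probes of Ndufb4 were lower too, by -0.43 and -0.41. The flavin-carrying Ndufv1, a core subunit, differed by -0.082 (adjusted p 0.381).

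The 2 complex I subunits that rose with GR24 were Ndufa10 and Ndufa5, both accessory. Ndufa10, in the membrane arm, stood at -2.03, -1.80 and -1.83 in the control, -1.30, -1.36 and -1.41 with GR24, -1.76, -1.56 and -1.52 with pinosylvin, and -2.09, -2.08 and -1.97 with resveratrol. Those with GR24 were highest, the pinosylvin arrays lay between them and the controls, and the resveratrol arrays overlapped the controls. The difference with GR24 was 0.53 (SE 0.086, adjusted p 0.000358), and with pinosylvin it was 0.27 (adjusted p 0.0558, or 0.0268 with the replicate block). Ndufa5 rose by 0.28 (adjusted p 0.0116).

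The probes for Ndufv3, an accessory subunit whose gene gives more than 1 transcript, went apart. They are annotated to different transcript records of the gene. One stood at 1.05, 1.05 and 0.86 in the control, 1.89, 1.88 and 1.75 with GR24, 1.31, 1.31 and 1.17 with pinosylvin, and 1.33, 1.21 and 1.14 with resveratrol. The other stood at 3.36, 3.49 and 3.32 in the control and at 3.12, 3.31 and 3.11 with GR24. The GR24 arrays were thus above the controls for the first probe and below them for the second. The first rose by 0.85 with GR24 (SE 0.081, adjusted p 7.32e-06) and by 0.27 with pinosylvin (adjusted p 0.0434). The second, which is the brighter and stands for the gene in the counts, differed by -0.21 with GR24 (adjusted p 0.0591), a decrease with the replicate block (adjusted p 0.0211).

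Of the 4 complex II genes, 2 were lower and 0 higher with GR24 in limma, against 25.5% and 31.5% of all probes. The counts were the same at an unadjusted p below 0.05 (27.1% and 33.5% of all probes). Over the scalings 1 to 2 were lower and 0 to 1 higher. The membrane anchor Sdhd stood at 5.12, 5.12 and 5.01 in the control and at 4.86, 4.87 and 4.81 with GR24, below the controls without overlap, and differed by -0.24 (adjusted p 0.00700). The iron-sulfur subunit Sdhb differed by -0.18 (adjusted p 0.0301), a call that 9 alternative settings ended, with adjusted p up to 0.335. They include the deposited table (-0.074, adjusted p 0.335) and leaving out GR24 replicate 1 (-0.18, adjusted p 0.0644), GR24 replicate 3 (-0.15, adjusted p 0.0886), control replicate 2 (-0.15, adjusted p 0.0973) or control replicate 3 (-0.17, adjusted p 0.0638). The flavoprotein Sdha differed by 0.12 (adjusted p 0.179), and it was higher with the replicate block (adjusted p 0.0387) and under 3 of the 6 scalings, by 0.22 (adjusted p 0.00372) with the 75th percentile over all spots. The other anchor, Sdhc, differed by 0.052 (adjusted p 0.75). The median of the 4 genes was -0.063, and it lay between -0.063 and 0.045 over the scalings.

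Of the 9 complex III subunits, 3 were lower and 0 higher with GR24 in limma, against 25.5% and 31.5% of all probes. At an unadjusted p below 0.05, 4 were lower and 0 higher (27.1% and 33.5% of all probes). The median of the 9 was -0.090 and lay between -0.092 and 0.028 over the scalings. Uqcrb, a small subunit at the coenzyme Q site, was lower under each scaling, and the count of lower subunits ranged from 2 to 3. Uqcrb stood at 5.92, 6.04 and 5.83 in the control and at 5.67, 5.65 and 5.57 with GR24. The groups did not overlap, and the difference was -0.30 (adjusted p 0.00309), with -0.31 at a second probe. The core protein Uqcrc2 differed by -0.34 (adjusted p 0.0111) and the small subunit Uqcr10 by -0.31 (adjusted p 0.0158), and each call held under 5 of the 6 scalings. The other core protein, Uqcrc1, differed by 0.30 (adjusted p 0.0891), an increase with the replicate block (adjusted p 0.0395). Cyc1, which is cytochrome c1 and hands electrons to cytochrome c, differed by 0.037 (adjusted p 0.762).

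Complex IV had the lowest median with GR24 of the 4 complexes under each scaling, -0.34 and between -0.34 and -0.19. Of its 15 genes, 7 were lower under each of the 6 scalings, where 25.5% of all probes were lower with the scaling used here. With that scaling 0 were higher in limma, also at an unadjusted p below 0.05, against 31.5% and 33.5% of all probes. Cox8b, the form of subunit VIII found in heart and skeletal muscle, stood at 4.61, 4.47 and 4.00 in the control, 3.39, 3.37 and 3.18 with GR24, 5.01, 4.91 and 4.58 with pinosylvin, and 4.29, 4.19 and 3.90 with resveratrol. The GR24 arrays were below every other array, while the pinosylvin and resveratrol arrays each overlapped the controls and not each other. Cox8b fell by 1.04 with GR24 (95% interval of the difference -1.43 to -0.66, adjusted p 0.000404). With pinosylvin its difference was 0.47 (adjusted p 0.0929), an increase with the replicate block (adjusted p 0.00204), and with resveratrol it was -0.23, a decrease with the block (adjusted p 0.0426).

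Cox8a, the widely expressed form of the same subunit, stood at 6.95, 7.07 and 6.92 in the control, 6.19, 6.23 and 6.14 with GR24, 7.19, 7.17 and 7.13 with pinosylvin, and 7.02, 7.05 and 6.96 with resveratrol. Its lowest arrays were those with GR24 and its highest those with pinosylvin. Cox8a fell by 0.79 with GR24 (SE 0.062, adjusted p 1.69e-06), so both forms were lower. With pinosylvin its difference was 0.18 (adjusted p 0.0705), an increase with the replicate block (adjusted p 0.0162).

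Subunit VIa showed a difference between its forms. Cox6a2, the form of heart and skeletal muscle, stood at 5.19, 5.12 and 4.99 in the control, 4.46, 4.34 and 4.21 with GR24, 6.65, 6.48 and 6.42 with pinosylvin, and 5.49, 5.39 and 5.28 with resveratrol. None of the groups overlapped, and they ran from GR24 up through the control and resveratrol to pinosylvin. Cox6a2 fell by 0.76 with GR24 (SE 0.096, adjusted p 6.00e-05) and rose by 1.42 with pinosylvin (95% interval 1.21 to 1.63, adjusted p 4.95e-06). A second probe gave -0.74 and 1.46. With resveratrol the difference was 0.29 (95% interval 0.075 to 0.50, adjusted p 0.0675), which passed with the replicate block (adjusted p 0.00151) and under 3 of the other scalings planned and the one added.

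Cox6a1, the widely expressed form, stood at 8.01, 8.23 and 7.84 in the control, 7.96, 7.98 and 7.93 with GR24, 8.11, 8.20 and 8.08 with pinosylvin, and 8.09, 8.03 and 7.99 with resveratrol. Each compound's arrays overlapped the controls, and its differences were -0.073, 0.10 and 0.0051 for GR24, pinosylvin and resveratrol. None passed the threshold in limma, also unadjusted, and each changed sign with the scaling.

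**Figure D2:**
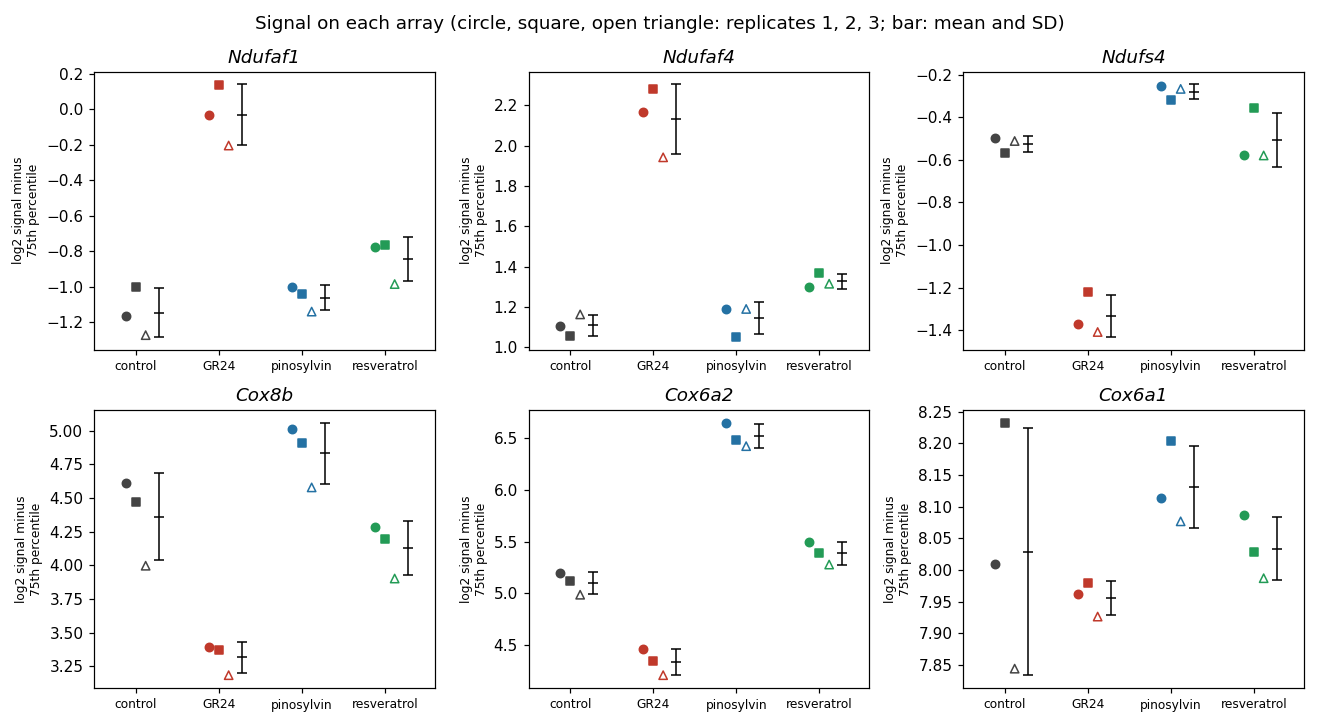
Level (log2 signal less that of the array's 75th percentile) on each of the 12 arrays for 6 member genes, with the mean and SD of the 3 arrays of a group. The vertical range differs between panels. The GR24 arrays of Ndufaf1 and Ndufaf4 are above all others, those of Ndufs4, Cox8b and Cox6a2 are below all others, and Cox6a1 spans 7.84 to 8.23 over the groups.

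The other complex IV genes that were lower with GR24 had no partner form that was called. Cox6b1, which faces the space between the membranes, differed by -0.39 (adjusted p 0.00154), and Cox7a2 by -0.37 (adjusted p 0.00314). Cox7b differed by -0.35 (adjusted p 0.00720) and Cox6c by -0.34 (adjusted p 0.00725). Of their partners, Cox6b2 differed by -0.0058 (adjusted p 0.990), while Cox7a1, the muscle form, and Cox7b2 had no member probe on the array. Cox4i1, the common form of subunit IV, differed by -0.11 (adjusted p 0.369), and Cox4i2 by -0.15 (adjusted p 0.811). On the first slide alone Cox4i2 was lower, by -0.33 (adjusted p 0.0296), and on the second its difference was 0.22. Ndufa4, named for complex I but found with complex IV, differed by -0.060 (adjusted p 0.543), with a sign that changed with the scaling.

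Several members differed more between the 2 slides than between the groups. Replicates 1 and 2 of each group were on one slide and replicate 3 on the other. Cox7c stood at 1.04, 1.30 and 2.58 in the control, 0.47, 0.53 and 1.74 with GR24, 1.09, 1.18 and 2.88 with pinosylvin, and 1.22, 1.13 and 2.54 with resveratrol. In each group the third array was the highest, by 1.44 on average over the groups. The difference with GR24 was -0.73 (adjusted p 0.346), with within-replicate differences of -0.57, -0.78 and -0.84, and it was a decrease with the replicate block (adjusted p 0.000382). The mean gap between slides was 1.17 for Cox6c-ps1, 1.12 for the second probe of Uqcrq, 1.01 for Cox4i2 and 0.73 for Cox6b2. None of the 4 genes whose main probe is among these was called with GR24 in the main fit. What sets these probes apart was not tested.

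**Figure D3:**
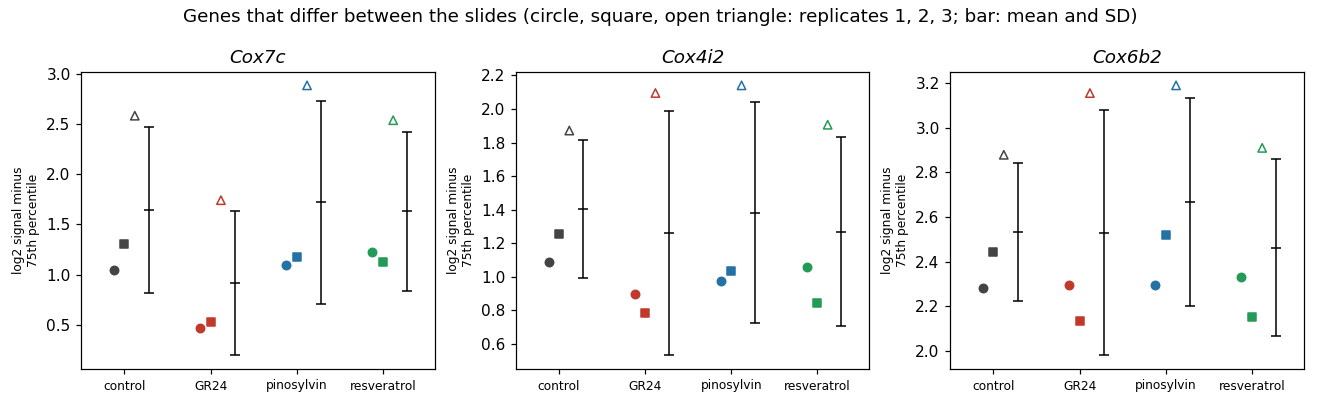
Level on each of the 12 arrays for Cox7c, Cox4i2 and Cox6b2, in log2 units relative to the array's 75th percentile, with the mean and SD of a group. Open triangles, the replicates on the second slide, lie above the other arrays of each group, by 1.44, 1.01 and 0.73 on average.

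The 3 comparisons with the control share its arrays. With pinosylvin, Cox6a2 was the member called higher and no member was called lower in limma, where 8.28% of all tested probes were higher and 8.27% lower. At an unadjusted p below 0.05, 12 members were higher and 0 lower, against 17.0% and 12.6% of all probes. Of the members' differences, 65 of 70 were above 0, with a median of 0.11 against 0.054 over all probes, and the median lay between 0.054 and 0.12 over the scalings. Of 70, between 1 and 7 were called higher under the 6 scalings, 5 without control replicate 2, and 2 without pinosylvin replicate 1, resveratrol replicate 1 or resveratrol replicate 2. With the replicate block 16 were higher and 0 lower, where 16.3% of all probes were higher and 12.3% lower. These 16 were 7 complex I subunits, 1 assembly factor, 2 complex II genes, 3 complex III genes and 3 complex IV genes. Cyc1 stood at 5.94, 6.10 and 5.75 in the control and at 6.15, 6.23 and 6.24 with pinosylvin. The groups did not overlap, and the difference of 0.28 (adjusted p 0.0608) was an increase with the block (adjusted p 0.0360). Sdha differed by 0.16 and Sdhd by 0.14, with adjusted p of 0.149 and 0.163, and of 0.0244 and 0.0417 with the block. Ndufaf8 differed by 0.34 (adjusted p 0.0587, or 0.0391 with the block).

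With resveratrol, limma called 0 members higher and 0 lower, where 7.99% of all tested probes were higher and 8.99% lower. At an unadjusted p below 0.05, 4 were higher and 2 lower, against 15.2% and 14.1% of all probes. The median difference was 0.0061, against 0.010 over all probes, and it lay between -0.0048 and 0.025 over the scalings. With the replicate block 3 were higher (Ndufaf1, Ndufb10 and Cox6a2) and 1 lower (Cox8b), where 14.1% of all probes were higher and 13.8% lower. The second probe of Uqcrb was higher with resveratrol, by 0.27 (adjusted p 0.0295), while the brighter one was not called. For 63 of the 70 members, the 95% interval of the difference from the control lay within -0.5 to 0.5. The exceptions were Ndufaf1, Cox6a2, Cox8b, and the 4 genes set apart by slide.

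The stilbenes were compared directly at the same dose and time. Of 70 members, 3 were higher with pinosylvin than with resveratrol and 0 lower in limma, where 7.68% of all probes were higher and 6.85% lower. At an unadjusted p below 0.05, 12 were higher and 0 lower, against 15.1% and 12.8% of all probes. The called genes were the muscle forms Cox6a2 and Cox8b, and Ndufa10. Cox6a2 was higher with pinosylvin by 1.13 (95% interval 0.92 to 1.34, adjusted p 5.66e-05), and Ndufa10 by 0.43 (95% interval 0.24 to 0.62, adjusted p 0.00734). Cox8b was higher by 0.71 (95% interval 0.32 to 1.09, adjusted p 0.0217). That call was lost without pinosylvin replicate 1 (0.62, adjusted p 0.0763), pinosylvin replicate 2 (0.67, adjusted p 0.0771), resveratrol replicate 2 (0.74, adjusted p 0.0532) or resveratrol replicate 3 (0.59, adjusted p 0.0804), and without the filter on dim probes (adjusted p 0.0642).

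The members' median difference between the stilbenes was 0.11, against 0.022 over all probes, and 60 of 70 were above 0. Over the scalings the median lay between 0.050 and 0.13, and 3 to 8 members were higher. With the replicate block 9 were higher and 1, Ndufaf1, was lower, where 14.4% of all probes were higher and 11.6% lower. Of the 67 members not called, 61 had a 95% interval within -0.5 to 0.5. For the widely expressed partners, Cox8a had a difference of 0.15 (95% interval 0.016 to 0.29, adjusted p 0.134) and Cox6a1 one of 0.098.

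GR24 was also compared with each stilbene, in comparisons that share its arrays. Against pinosylvin, 6 members were higher and 39 lower, where 29.6% of all probes were higher and 26.8% lower. Their median difference was -0.27, against -0.0031 over all probes, and 22 to 39 were lower over the scalings. The replicate block gave 6 higher and 48 lower, where 34.2% of all probes were higher and 32.3% lower. Against resveratrol, 7 members were higher and 23 lower, where 27.4% of all probes were higher and 23.9% lower. The block gave 8 higher and 34 lower, where 32.7% of all probes were higher and 28.5% lower. Here the median was -0.14, against 0.024 over all probes, 12 to 27 were lower over the scalings, and 15 were lower without resveratrol replicate 1 or without the filter on dim probes. In both comparisons 5 of the 7 assembly factors were higher with GR24 under each scaling, and 1 was lower than with pinosylvin (0 to 1 over the scalings). Complex III had 7 of 9 genes lower with GR24 than with pinosylvin (3 to 7 over the scalings) and 4 of 9 lower than with resveratrol (1 to 4), and complex IV had 9 (6 to 9) and 6 (4 to 7) of 15.

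Genes that work beside the 4 complexes moved in both directions with GR24. Of 17 measured ATP synthase genes, 2 were higher and 8 lower, where 31.5% of all probes were higher and 25.5% lower. The list's median of -0.23 lay between -0.24 and -0.13 over the scalings, and the same 10 calls held under each scaling. Atp5me and Atp5pf, parts of the membrane domain and its stalk, differed by -0.41 (adjusted p 0.00246) and -0.36 (adjusted p 0.000457). Atp5if1, an inhibitor of the enzyme's reverse reaction, stood at 5.46, 5.60 and 5.31 in the control and at 6.04, 6.07 and 5.82 with GR24. Its groups did not overlap, and it rose by 0.52 (adjusted p 0.000905), as did the stalk subunit Atp5pd by 0.26 (adjusted p 0.0241). With pinosylvin 0 of the 17 were called in limma, where 8.28% of all probes were higher and 8.27% lower. At an unadjusted p below 0.05, 1 was higher, as were 17.0% of all probes. With resveratrol 1 of the 17 was higher (5.88%, against 7.99% of all probes), Dmac2l, by 0.33 (adjusted p 0.0281). That call held under 5 of the 6 scalings.

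Assembly factors outside the member rule resembled neither a uniform rise nor a fall. Of 37 measured, 19 were higher and 5 lower with GR24, where 31.5% of all probes were higher and 25.5% lower. The list's median of 0.19 lay between 0.16 and 0.29 over the scalings. Taco1, which activates translation of a mitochondrial complex IV subunit, rose by 1.05 (adjusted p 6.48e-05). Coa3, an assembly factor of complex IV, rose by 0.94 (adjusted p 3.21e-05). Sco1, which delivers copper to complex IV, stood at 2.22, 2.23 and 1.74 in the control and at 1.10, 1.21 and 0.80 with GR24. Its groups did not overlap, and it fell by 1.03 (adjusted p 0.000748). Nubpl, which helps place iron-sulfur clusters in complex I, fell by 0.58 (adjusted p 0.000511). With pinosylvin 1 of the 37 (2.70%, against 8.28% of all probes) was higher, the copper chaperone Cox17, by 0.41 (adjusted p 0.0341). With resveratrol 3 (8.11%, against 7.99%) were higher, among them the complex III factor Ttc19 by 0.29 (adjusted p 0.0200) and the complex IV factor Cmc1 by 0.23 (adjusted p 0.0401).

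Among 16 genes for electron carriers and the synthesis of coenzyme Q, 9 were higher and 3 lower with GR24, against 31.5% and 25.5% of all probes. The list's median of 0.23 lay between 0.20 and 0.33 over the scalings. The coenzyme Q enzymes Coq6 and Coq8a rose by 0.94 (adjusted p 9.66e-05) and 0.86 (adjusted p 3.14e-05). Cycs, cytochrome c itself, stood at 5.56, 5.73 and 5.56 in the control and at 5.15, 5.10 and 5.05 with GR24. The GR24 arrays were below the controls, and Cycs fell by 0.52 (adjusted p 0.000154), as did the coenzyme Q enzyme Coq7 by 0.54 (adjusted p 0.000111). The methyltransferase Coq5 was the gene of this list called with pinosylvin, by 0.29 (adjusted p 0.0410, under 5 of the 6 scalings), and with resveratrol, by 0.35 (adjusted p 0.0175, under all 6). Each time 6.25% of the list was thus higher, against 8.28% of all probes with pinosylvin and 7.99% with resveratrol.

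Regulators of mitochondrial gene expression and biogenesis had a median difference of 0.55 with GR24. Of 15 measured, 10 were higher and 1 lower, where 31.5% of all probes were higher and 25.5% lower. Between 0.55 and 0.66 over the scalings, the median kept its sign, and the same 10 genes were higher under each. Twnk, the helicase of mitochondrial DNA, stood at -0.0011, 0.016 and -0.20 in the control, 1.73, 1.76 and 1.54 with GR24, 0.51, 0.51 and 0.22 with pinosylvin, and 0.51, 0.37 and 0.25 with resveratrol. Each compound's arrays were above the controls, and the GR24 arrays were the highest. Twnk rose by 1.74 with GR24 (adjusted p 3.49e-07), by 0.48 with pinosylvin (adjusted p 0.0143) and by 0.44 with resveratrol (adjusted p 0.0210). Tfb2m, a mitochondrial transcription factor, rose by 1.06 with GR24 (adjusted p 2.26e-06), and its relative Tfb1m fell by 0.38 with pinosylvin (adjusted p 0.0230). With resveratrol Nrf1 fell by 0.62 (adjusted p 0.0183) and Esrra rose by 0.35 (adjusted p 0.00893), both transcription factors of respiratory genes. Gabpa, another such factor, differed by -0.19 with GR24 (adjusted p 0.0498), a call that held under 2 of the 6 scalings. The lowest difference of the list with GR24 was that of Nrf1, -0.38, which was not called and whose groups overlapped. Ppargc1a, the coactivator of these factors, had no tested probe.

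Markers of muscle differentiation and of dividing cells were read on the same arrays. Of 12 myotube markers, 9 were lower and 0 higher with GR24 in limma under each scaling, and as many at an unadjusted p below 0.05. With the scaling used here, 25.5% of all probes were lower and 31.5% higher, or 27.1% and 33.5% unadjusted. The markers' median of -1.79 lay between -1.79 and -1.01 over the scalings. Relative to the control mean, the median of the 12 on each array was -0.012, 0.076 and -0.098 in the control, -1.73, -1.73 and -1.57 with GR24, 0.079, 0.16 and 0.0017 with pinosylvin, and -0.30, -0.28 and -0.37 with resveratrol. The GR24 arrays were lowest and the resveratrol arrays were below the controls, while the pinosylvin arrays overlapped them. Myog, a transcription factor of muscle differentiation, stood at 5.24, 5.25 and 5.08 in the control, -0.38, -1.05 and -0.50 with GR24, 6.01, 5.85 and 5.91 with pinosylvin, and 4.72, 4.67 and 4.65 with resveratrol. It fell by 5.83 with GR24 (adjusted p 5.53e-10) and rose by 0.73 with pinosylvin (adjusted p 0.00654), and the actin gene Acta1 fell by 3.88 with GR24 (adjusted p 2.40e-10).

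Myod1, another muscle transcription factor, was not well above background on any GR24 array, so it was at least 3.21-fold lower with GR24, and with Myod1 at that bound the list's median was -1.41. With resveratrol 6 of the 12 markers were lower (5 to 8 over the scalings), against 8.99% of all probes. Among them were creatine kinase, Ckm, by -1.04 (adjusted p 0.000597) and Myod1 by -1.11 (adjusted p 0.00846), the latter well above background on 2 of 3 resveratrol arrays. With pinosylvin 2 were higher (8.28% of all probes), Myog and the troponin gene Tnnt3, the latter by 0.54 (adjusted p 0.000919). Pinosylvin exceeded resveratrol at 8 of the 12 (5 to 9 over the scalings) and at 7.68% of all probes, with a median of 0.48 for the markers that lay between 0.28 and 0.50. Of 8 measured markers of undifferentiated or dividing cells, 5 were lower and 1 was higher with GR24, against 25.5% and 31.5% of all probes. The higher one was Id2, by 1.22 (adjusted p 9.93e-07). Ccnb1 and Mki67, genes of dividing cells, fell by 2.86 and 2.83 with GR24, by 1.74 and 1.65 with pinosylvin, and by 1.02 and 0.81 with resveratrol. The part of these changes in the values of the respiratory chain genes was not tested, and in RNA from whole cultures fewer cells of a type and less RNA per cell cannot be told apart.

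The promoters of the members were read for short motifs of factors known to act on respiratory genes. RefSeq's table on the build GRCr8 held a promoter of 300 bases (250 before and 50 after the start) for 59 of the 70 members, and 33469 promoters in all. A match could be on either strand. The NRF1 core GCATGCGC was in 6 of the 59 members' promoters (10.2%) and in 2.47% of all promoters. The ETS core CCGGAAG, which GABPA binds, was in 18 (30.5%) against 8.75%, and the YY1 core AAGATGGC in 10 against 3.17% of all. The core of the antioxidant response element, TGACNNNGC, was in 7 (11.9%) against 12.1%. Among the 6 matched members that were higher with GR24, 2 held the NRF1 core, 1 the ETS core, and 0 the others. Among the 21 that were lower, 1 held the NRF1 core, 8 the ETS core, 3 the YY1 core and 3 the core of the antioxidant response element. The set of all promoters was not matched to the members for expression or base composition, so the shares do not show what is particular to respiratory genes. These matches describe the letters in the window and do not show that a factor binds there.

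Promoters of assembly factors that rose with GR24 are shown because they hold matches of different kinds. The strand is given after the position, and capitals mark motif matches. In Ndufaf4 (chr5:43401545-43401844, plus strand) and Ndufaf5 (chr3:147961362-147961661, plus strand) the NRF1 core matches on both strands, and the matches overlap. In Ndufaf1 (chr3:127103971-127104270, minus strand) the ETS core matches at 2 places.
Ndufaf4: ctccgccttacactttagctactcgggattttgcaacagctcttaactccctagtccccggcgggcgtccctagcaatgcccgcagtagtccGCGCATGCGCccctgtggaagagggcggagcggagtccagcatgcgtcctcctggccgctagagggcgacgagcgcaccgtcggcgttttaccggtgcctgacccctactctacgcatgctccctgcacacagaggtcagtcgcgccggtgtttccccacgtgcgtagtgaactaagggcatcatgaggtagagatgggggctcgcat
Ndufaf5: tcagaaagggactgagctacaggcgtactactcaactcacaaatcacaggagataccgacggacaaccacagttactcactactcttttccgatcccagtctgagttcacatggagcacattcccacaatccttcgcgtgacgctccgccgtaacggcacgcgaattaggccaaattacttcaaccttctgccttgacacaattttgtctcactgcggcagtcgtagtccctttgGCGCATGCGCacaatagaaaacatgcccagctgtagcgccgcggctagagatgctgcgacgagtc
Ndufaf1: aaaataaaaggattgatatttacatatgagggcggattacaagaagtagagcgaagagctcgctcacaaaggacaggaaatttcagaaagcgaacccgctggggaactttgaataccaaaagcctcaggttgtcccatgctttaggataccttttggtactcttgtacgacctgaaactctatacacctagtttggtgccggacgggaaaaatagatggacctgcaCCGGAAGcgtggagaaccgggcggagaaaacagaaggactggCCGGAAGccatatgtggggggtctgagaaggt

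Promoters of subunit genes that fell with GR24 are shown for comparison, including both forms of subunit VIII. In Cox8a (chr1:213833574-213833873, minus strand) the ETS core matches at 2 places and the YY1 core at 1. In Cox8b (chr1:205408224-205408523, minus strand) none of the 4 motifs matched. In Ndufs4 (chr2:47794865-47795164, minus strand) the YY1 core matches at 1 place.
Cox8a: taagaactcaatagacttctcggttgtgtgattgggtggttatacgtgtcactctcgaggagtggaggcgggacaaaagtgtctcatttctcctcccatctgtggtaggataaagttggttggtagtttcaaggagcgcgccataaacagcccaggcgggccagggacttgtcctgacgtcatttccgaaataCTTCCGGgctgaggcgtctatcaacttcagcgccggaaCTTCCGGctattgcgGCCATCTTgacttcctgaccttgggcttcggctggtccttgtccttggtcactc
Cox8b: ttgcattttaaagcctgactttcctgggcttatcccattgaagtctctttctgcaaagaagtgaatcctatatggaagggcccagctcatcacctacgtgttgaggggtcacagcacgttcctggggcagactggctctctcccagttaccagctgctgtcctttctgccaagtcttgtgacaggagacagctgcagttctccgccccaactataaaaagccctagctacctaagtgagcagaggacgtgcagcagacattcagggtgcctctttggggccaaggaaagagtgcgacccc
Ndufs4: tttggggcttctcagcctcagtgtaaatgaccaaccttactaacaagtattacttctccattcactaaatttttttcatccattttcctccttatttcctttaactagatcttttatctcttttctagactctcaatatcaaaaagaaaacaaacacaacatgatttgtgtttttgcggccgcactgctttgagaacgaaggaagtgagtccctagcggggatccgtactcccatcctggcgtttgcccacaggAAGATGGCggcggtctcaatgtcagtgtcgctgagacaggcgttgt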

How the data were processed

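RNA from 12 cultures was measured on 1-colour Agilent arrays. The submitters' processing notes name Agilent Feature Extraction 12.0.0.7 and limma. The deposited array files give background-corrected signals as intensity, with flags from the scanner software, and the table deposited by the authors gives log2 values for 25848 probes, normalized between arrays. The column medians of that table lie between 9.21 and 9.24, and its method, background correction and filter are not stated.

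Signals were log2 transformed, outlier spots were left out, the spots of a probe were averaged, and each array's 75th percentile over its 45598 probes was subtracted. A probe was tested where each of the 3 arrays of some group had it well above background, which 24279 probes met. Group means over the 12 arrays were compared with limma 3.58.1 in R 4.3.3, with Benjamini-Hochberg adjustment over all tested probes in each comparison and a threshold of 0.05. Where a gene had several tested probes (17 of the members), the one with the highest mean stands for it.

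Named were, for each compound, the 5 largest increases and 5 largest decreases among called members without overlap between groups (3 and 3 between the stilbenes), complex II, Cyc1, subunits with tissue forms, and genes whose probes were called in opposite directions or differed by over 1 log2 unit. From the other lists, the 2 largest changes each way per compound among called genes were named. Genes named beyond this were chosen after their values were seen. The members and lists were chosen with earlier results of these data known. No set of genes was tested as a whole.

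Replicate numbers were checked for pairing. After removal of the group means, arrays of different groups correlated across probes with r between 0.191 and 0.744 (median 0.425) in the 18 pairs that share a number, and between -0.663 and 0.475 (median -0.452) in the 36 that do not. Within the first slide r had a median of 0.383 in the 12 pairs that share a number and 0.282 in the 12 that do not, and all 24 pairs across slides were negative. A fit with the replicate number as a block was run beside the main one. Replicates 1 and 2 were on 1 slide and replicate 3 on another, and each slide held all 4 groups. The 3 experiments used the same batch of cells.

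As alternatives, results were recomputed with quantile normalization, normexp correction of the median signals (offset 50) and either scaling, outlier spots kept, the deposited table, no filter or a stricter filter on dim probes, only the arrays compared, the replicate or the slide as a block, either slide alone, eBayes with trend and robust options, the mean over a gene's probes, and leaving out each array. The 75th percentile over all spots was chosen after seeing the data. The 6 scalings are the one used here, quantile normalization, both normexp versions, the deposited table and that percentile. Promoter sequences are RefSeq's.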

Additional observations from a re-analysis of the deposited data

How the results depend on the processing

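Of the 16 member differences with GR24 that the naming rule gave and that were called, 14 kept their direction and side of the threshold under each alternative, and so did 1 of 1 with pinosylvin and 2 of 3 between the stilbenes. The exceptions were Sdhb, Ndufaf6 on the first slide alone, and Cox8b between the stilbenes. The number of members higher with GR24 was 13 with quantile normalization, 12 with normexp and quantile normalization, 12 in the deposited table, 11 with the replicate block, 11 with the slide as a block, and 13 with the 75th percentile over all spots, the alternative chosen after seeing the data. The number higher with pinosylvin was 2 with normexp, 3 with normexp and quantile normalization, 2 in the deposited table, 3 with probes well above background on each array, 16 with either block, 2 on the first slide, 4 with trend and robust options, and 7 with the percentile over all spots. With resveratrol 2, 1, 1, 3, 4, 1 and 2 were higher with quantile normalization, normexp and quantile normalization, the deposited table, the replicate block, the slide block, trend and robust options, and the percentile over all spots, and 1 was lower with either block and on the first slide. Between pinosylvin and resveratrol, 9 were higher with the replicate block, 12 with the slide block and 8 with the percentile over all spots, and 1 was lower with either block. Fewer than with the main settings were lower with GR24 than with pinosylvin in the deposited table (22), and lower than with resveratrol without the filter on dim probes (15) and with the percentile over all spots (12, beside 11 higher). The cause of these shifts was not tested.

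The members' median difference moved by more than its spread between replicates in these settings. With quantile normalization it was -0.074 for GR24 against the control, 0.050 for pinosylvin against resveratrol, -0.12 for GR24 against pinosylvin and -0.088 for GR24 against resveratrol. In the same order it was -0.074, 0.050, -0.12 and -0.074 with normexp and quantile normalization, and -0.044, 0.051, -0.11 and -0.065 in the deposited table. With the percentile over all spots it was -0.046 for GR24 against the control, -0.18 against pinosylvin and -0.028 against resveratrol. With the mean over a gene's probes it was -0.24 for GR24 against pinosylvin. On the second slide alone it was 0.19 for pinosylvin against the control and 0.16 against resveratrol.

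Ndufv3 turned to 0.32 with the mean of its probes, which go opposite ways. The other changes of sign were in differences that did not pass the threshold. For GR24, Ndufa4 was 0.029, 0.084, 0.088 and 0.040, and Cox6a1 was 0.036, 0.035, 0.14 and 0.027, with quantile normalization, normexp and quantile normalization, the deposited table and the percentile over all spots. Cox6b2 was 0.082 in the deposited table and 0.094 with that percentile, and Cyc1 was -0.044 on the first slide. For pinosylvin, Cox7a2 was -0.049, -0.048 and -0.036, Cox6a1 was -0.056, -0.068 and -0.035, and Cox4i1 was -0.046, -0.032 and -0.011, with the first 3 of these settings. Cox6b1 was 0.0048 with quantile normalization and 0.0020 with the percentile over all spots, and on the first slide Sdhc was -0.023 and Cox7a2 -0.029. For resveratrol, Sdha was -0.0063 with normexp and quantile normalization, Cox7b was 0.0050 in the deposited table, and with the percentile over all spots Cox6a1 was -0.0058 and Cox4i1 -0.0026. On the first slide, with resveratrol, Ndufa4 was -0.0062, Cox6a1 -0.064, Cyc1 -0.0050, Sdha -0.0030 and Cox4i1 -0.0062.

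Leaving out 1 array at a time gave 1 to 5 members higher with pinosylvin and 15 to 23 lower with GR24 than with resveratrol. For GR24 it gave ranges of -0.034 to 0.10 for Sdhc, -0.11 to 0.0015 for Ndufa4, -0.17 to 0.029 for Cox6a1, -0.56 to 0.093 for Cox4i2, -0.054 to 0.12 for Cyc1 and -0.32 to 0.19 for Cox6b2. For pinosylvin the ranges were -0.059 to 0.14 for Sdhc, -0.065 to 0.10 for Cox7a2, -0.40 to 0.21 for Cox4i2, -0.045 to 0.025 for Cox6b1, -0.025 to 0.11 for Cox4i1 and -0.13 to 0.32 for Cox6b2. For resveratrol they were -0.11 to 0.055 for Cox7b, -0.036 to 0.080 for Ndufa4, -0.087 to 0.11 for Cox6a1, -0.45 to 0.099 for Cox4i2, -0.041 to 0.14 for Cyc1, -0.038 to 0.049 for Sdha, -0.056 to 0.058 for Cox4i1 and -0.30 to 0.10 for Cox6b2. Among the genes named by rule, the replicate block changed no call beyond those given with it above. Each member was measured above background in at least 1 group, and the 3 arrays of a group limit what small differences can show.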
